A study of Mus musculus with 37 samples.

Results

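Cdkn1a, the gene of the cell cycle inhibitor p21, and 9 other target genes of the transcription factor p53 were followed in 37 RNA sequencing libraries of mouse liver. The set held Cdkn1a, Mdm2, Ccng1, Bax, Gadd45a, Sesn2, Btg2, Trp53inp1, Phlda3 and Bbc3, 10 of the 55487 genes in the count table, chosen by symbol, and all 10 had enough reads to be tested. Livers came from wild-type mice (WT) and from mice with the genotype label NOX4-/- (KO), in which the NADPH oxidase gene Nox4, whose product makes hydrogen peroxide, is knocked out. The mice had a partial hepatectomy, in which most of the liver is removed and the remnant regrows, or a sham operation. After hepatectomy there were 3, 3, 4 and 3 WT livers and 3, 4, 4 and 3 KO livers at 6 h, 24 h, 48 h and 7 d. Each genotype had 5 sham livers, taken in the WT at 6 h, 24 h, 48 h (2 livers) and 7 d, and in the KO at 6 h, 24 h, 48 h (2 livers) and 72 h. Sex was mixed, with 23 male and 14 female livers, but the 6 h livers, sham and hepatectomy alike, were male. The labels used here give no strain, age or deleted exons, and do not say whether Nox4 is lost in every cell type. Each library is labelled as a separate sample, and where nothing says that samples are separate animals, the p-values measure only the spread between these samples.

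p53 is held at a low level in resting cells by the ubiquitin ligase MDM2, which is itself made from a p53 target gene. DNA damage, oxidative stress and other insults release p53, which then binds a pair of decamer motifs near its target genes and activates genes for cell cycle arrest, stress defence, repair and apoptosis. In the regenerating liver p21 is known as a brake on hepatocyte proliferation, and its gene, like Btg2, Gadd45a and Sesn2, can also be induced by stress and immediate early pathways that do not need p53.

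The promoters of 3 members are shown because they differ in which motif they carry. Their genes also differ in how far they moved, but a link between motif and change was not tested. Capitals mark a pair of p53 decamers in Cdkn1a and Ccng1, and in Btg2 the cAMP response element TGACGTCA, a motif that was chosen for display after the sequence was seen. The sequences are RefSeq windows of build GRCm38.p6, from 250 bases before the start site up to the last base before the first annotated exon, each read 5′ to 3′ on the gene's own strand. The Cdkn1a window is chr17:29090729-29090975 (plus strand), the Ccng1 window chr11:40755312-40755536 (minus strand), and the Btg2 window chr1:134079156-134079405 (minus strand).
Cdkn1a: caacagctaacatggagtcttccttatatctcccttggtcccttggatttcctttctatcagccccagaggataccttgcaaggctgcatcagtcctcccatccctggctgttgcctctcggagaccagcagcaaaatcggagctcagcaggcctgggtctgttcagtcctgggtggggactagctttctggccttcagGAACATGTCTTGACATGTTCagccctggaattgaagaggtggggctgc
Ccng1: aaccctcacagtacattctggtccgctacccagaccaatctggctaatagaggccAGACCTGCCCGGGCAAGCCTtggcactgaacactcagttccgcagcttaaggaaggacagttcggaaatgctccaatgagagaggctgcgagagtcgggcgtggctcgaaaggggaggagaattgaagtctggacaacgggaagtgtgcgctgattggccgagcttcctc
Btg2: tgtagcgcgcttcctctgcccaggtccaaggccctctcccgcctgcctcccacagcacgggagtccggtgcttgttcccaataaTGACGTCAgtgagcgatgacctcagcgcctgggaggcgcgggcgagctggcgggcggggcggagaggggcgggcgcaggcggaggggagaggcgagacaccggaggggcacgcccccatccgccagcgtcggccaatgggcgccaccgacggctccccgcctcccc
Windows were found for 9 of the 10 genes, all but Trp53inp1. A pair of decamers of the p53 consensus, with at most 1 mismatch over the pair and at most 13 bases between them, occurred in the windows of 3 of these 9 genes: Cdkn1a, Ccng1 and Bax. The consensus reads the same on both strands, so 1 search covers both, and 0.898% of all 32851 promoter windows hold such a pair. The window of the first Cdkn1a start site, at chr17 position 29090979, holds 2 such pairs, which share 1 decamer. That of its second start site, at position 29093769, holds 0. The pair shown is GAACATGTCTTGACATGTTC, at positions -51 to -32 from the first start site, with no bases between the decamers. In Ccng1 it is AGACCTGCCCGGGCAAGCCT, at positions -195 to -176, and in Bax it is AAGCATATCCCAGGCAAGCTT, at positions -212 to -192 with 1 base between the decamers. TGACGTCA, which also reads the same on both strands, is in 1.55% of all windows and among the members in Btg2. These are matches of letters, and none of them was tested for binding here. Sequence outside the windows was not searched, so a gene without a match may still have a p53 element.

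Total counts ranged from 26232544 to 48827025 per library. In the libraries labelled KO, Nox4 read 0 to 4.98 CPM (counts scaled to a common library size with TMM factors), against 0.778 to 23.5 CPM in those labelled WT. Nox4 was lower in KO sham livers by a log2 change of -2.66 (SE 0.53, adjusted p = 0.0114), although single libraries of the 2 genotypes overlapped, and the counts cover the whole gene. The hepatocyte markers summed to 46800 CPM or more in every library; the lowest sum was in WT 24 h replicate 3, which also had the highest share of mitochondrial counts, 8.93%. No marker gene of the hepatocyte, Kupffer cell, neutrophil, lymphocyte, endothelial, stellate, bile duct or red cell lists stayed under 0.1 CPM in every library. Fewer cells of a type and less RNA per cell cannot be told apart in such bulk samples.

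The 10 genes differed in how widely they varied. From the lowest to the highest of the 37 libraries, CPM spanned 508-fold for Cdkn1a, 207-fold for Btg2, 86.7-fold for Gadd45a and 67.7-fold for Trp53inp1. The span was 17.7-fold for Bbc3, 12.8-fold for Phlda3, 9.13-fold for Mdm2, 7.2-fold for Sesn2, 5.7-fold for Ccng1 and 3.29-fold for Bax. Per kilobase of exon, the highest median level in sham livers was that of Bax, at 9.19 CPM per kb, and Cdkn1a had 1.14 CPM per kb. The highest level per kilobase in any library was 301 CPM per kb for Btg2 and 170 for Cdkn1a, while Bax reached 22.4.

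Cdkn1a (chr17:29090976-29100727, plus strand, GRCm38), whose product p21 blocks cyclin-dependent kinases, was low in the later sham livers, high at 6 h in both genotypes, and higher in the KO at 24 h. In WT sham livers it read 1.53 CPM at 7 d, 2.19 and 4.48 CPM at 48 h, 1.19 CPM at 24 h and 132 CPM at 6 h. In KO sham livers it read 10 CPM at 24 h, 3.65 and 7.45 CPM at 48 h, 3.63 CPM at 72 h and 62.8 CPM at 6 h. Both 6 h sham livers thus lay above all 8 later ones. At 6 h after hepatectomy the WT livers had 162, 250 and 281 CPM and the KO livers 222, 196 and 184 CPM, and the genotypes overlapped. At 24 h the WT livers had 2.96, 24.6 and 25.3 CPM and the KO livers 64.9, 299, 605 and 552 CPM, so that every KO liver was above every WT liver. At 48 h the order was the other way, with 128, 29.2, 156 and 38.3 CPM in the WT and 15.7, 14.9, 21.1 and 11.3 CPM in the KO, again without overlap. By 7 d the levels were 1.88, 3.56 and 6.79 CPM in the WT and 7.10, 4.24 and 4.88 CPM in the KO, within the range of the later sham livers.

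By group mean the order of Cdkn1a was KO 24 h (380 ± 249 CPM, SD, n = 4), WT 6 h (231 ± 62.0, n = 3), KO 6 h (201 ± 19.0, n = 3) and WT 48 h (87.9 ± 63.7, n = 4). Below these came WT sham (28.3 ± 58.0, n = 5), WT 24 h (17.6 ± 12.7, n = 3), KO sham (17.5 ± 25.5, n = 5) and KO 48 h (15.8 ± 4.05, n = 4). The 7 d groups were lowest, with 5.41 ± 1.5 CPM in the KO and 4.08 ± 2.49 CPM in the WT (n = 3 each). Neighbours in this order overlapped in their ranges except at 2 steps, from KO 6 h down to WT 48 h and from KO 48 h down to KO 7 d.

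**Figure D1:**
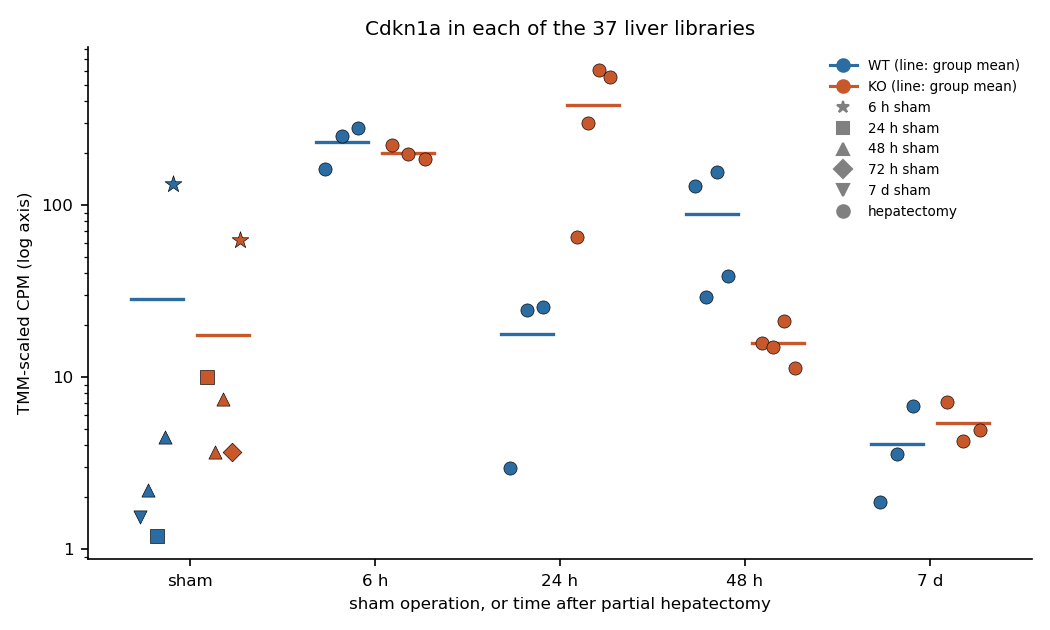
Cdkn1a in each library, in TMM-scaled CPM on a log axis, by operation and time; WT is blue, KO is orange, lines are group means, and sham livers are marked by the time of the sham operation. The 6 h sham livers (stars, 132 and 62.8 CPM) stand above the other sham livers, KO livers are the higher ones at 24 h, and WT livers are the higher ones at 48 h.

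Because sham livers were taken at different times, they could be compared by time after the sham operation. There was no unoperated liver, and the labels used here give no time of day. A change with time of day therefore cannot be told apart from a change with time after the operation. Of the 10 members, 2 were higher and 1 was lower in the 6 h sham livers (n = 2) than in the later ones (n = 8), where 3.33% and 1.09% of all genes were called higher and lower. Cdkn1a rose with a log2 change of 4.64 (SE 0.63, adjusted p = 0.000218), averaged over the genotypes. Btg2 (chr1:134075170-134079120, minus strand), an antiproliferative immediate early gene, had 99.0 CPM in the WT and 46.7 CPM in the KO 6 h sham liver against 3.99 to 12.9 CPM in the later ones, a log2 change of 3.04 (SE 0.70, adjusted p = 0.0119). Bbc3, which encodes the proapoptotic protein PUMA, fell, from 4.46 to 10.5 CPM in the later sham livers to 1.29 and 1.84 CPM at 6 h, a log2 change of -2.26 (SE 0.58, adjusted p = 0.0253). These were also the 3 members whose 6 h and later sham livers did not overlap, which rests on the same values as the calls. How many of all genes separate in this way was not counted. Of p53 targets that other stress pathways also induce, the Polo-like kinase gene Plk3 (2.20, SE 0.46, adjusted p = 0.00696) and the stress gene Ddit4 (2.33, SE 0.63, adjusted p = 0.0311) rose in the 6 h sham livers. Among relatives of the members, chosen by family and not as p53 targets, Gadd45g rose (3.60, SE 0.49, adjusted p = 0.000218). Trp53inp2, a relative of Trp53inp1, also rose (1.23, SE 0.34, adjusted p = 0.039). Ei24 was the 1 gene called among 31 other p53 targets tested (0.64, SE 0.19, adjusted p = 0.0453). In males alone the calls of Btg2 (adjusted p = 0.0521) and Bbc3 (adjusted p = 0.068) were lost, while Cdkn1a kept its call. In the same comparison 1 of 4 B cell markers was lower (median log2 change -3.56), 1 of 8 neutrophil markers was higher, and no Kupffer cell marker passed (median -0.80). WT sham replicate 5, the 6 h sham liver, had the lowest Kupffer cell marker sum of the WT sham livers (162 CPM, against 393 to 572) and their highest hepatocyte marker sum (161000 CPM), with a TMM factor of 0.7351. In the KO 6 h sham liver the Kupffer cell sum was 325 CPM, within the 290 to 450 CPM of the later KO sham livers. The part of these markers in the change was not tested.

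At 6 h after hepatectomy, against the sham livers of all times, Btg2 rose and Bbc3 fell in the WT, and Btg2, Gadd45a and Cdkn1a rose in the KO. In the WT these were 1 member higher and 1 lower, where 4.16% and 3.7% of all genes were called higher and lower. In the KO they were 3 members higher and none lower, where the shares were 4.11% and 2.51%. Btg2 read 231, 313 and 827 CPM in the WT and 717, 260 and 756 CPM in the KO, above every sham liver. Its log2 change was 4.02 (SE 0.85, adjusted p = 0.00498) in the WT and 4.83 (SE 0.88, adjusted p = 0.00116) in the KO. Bbc3 read 0.592, 1.33 and 1.83 CPM in the WT, level with the 6 h sham liver, and its log2 change against all sham livers was -2.43 (SE 0.61, adjusted p = 0.0147). In the KO it read 2.35, 1.05 and 3.85 CPM, with a log2 change of -1.16 (SE 0.57) that did not pass (adjusted p = 0.227). In the WT the calls of Btg2 and Bbc3 were both lost without WT 6 h replicate 3 (3.27, adjusted p = 0.0738; -2.81, adjusted p = 0.0672), in males alone (adjusted p = 0.22 and 0.2) and in the compared groups alone (adjusted p = 0.254 and 0.249). Bbc3 also lost its call without WT sham replicate 1 or WT 6 h replicate 1 (adjusted p = 0.0731 and 0.0824).

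Gadd45a, a stress sensor that acts in growth arrest and DNA repair, read 10.1, 7.07 and 10.5 CPM in the WT at 6 h, above the 1.34 to 4.41 CPM of all WT sham livers. In the KO it read 23.4, 10.1 and 21.1 CPM against 1.66 to 3.30 CPM in sham livers. It passed in the KO (log2 change 2.93, SE 0.78, adjusted p = 0.0205) and not in the WT (1.21, SE 0.79, adjusted p = 0.348), but the difference between these changes did not pass either (1.72, SE 1.09, adjusted p = 1). Cdkn1a passed in the KO (3.28, SE 1.01, adjusted p = 0.0456) and not in the WT (2.91, SE 0.99, adjusted p = 0.0647). The Gadd45a call in the KO was lost in males alone (adjusted p = 0.0771) and without KO sham replicate 1, KO 6 h replicate 1 or KO 6 h replicate 3 (2.71 to 2.81, adjusted p = 0.0566 to 0.0948). The Cdkn1a call in the KO was lost when any of 24 single libraries was left out, with adjusted p-values up to 0.13. No member differed between KO and WT at 6 h (0 of 10 by edgeR and by DESeq2, 0 at an unadjusted p under 0.05), where 0.0578% of genes were called in each direction.

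The size of the 6 h changes depended on which sham livers were used. Without the 6 h sham livers, Cdkn1a rose by 6.46 on the log2 scale in the WT (SE 0.80, adjusted p = 5.84e-06) and by 4.92 in the KO (SE 0.72, adjusted p = 0.000129). The members called were then 2 higher and 1 lower in the WT (10.6% and 8.31% of all genes) and 3 higher and 1 lower in the KO (7.23% and 4.63%). Against the 6 h sham livers (1 per genotype), hepatectomy livers gave log2 changes of 1.24 for Cdkn1a (SE 0.74, adjusted p = 0.606), 2.92 for Btg2 (SE 0.92, adjusted p = 0.205) and 2.29 for Gadd45a (SE 1.10, adjusted p = 0.469). Bbc3 stood at 0.16 (SE 0.52, adjusted p = 0.959) in that comparison. None of the 10 members passed there by edgeR, 4 had an unadjusted p under 0.05 and 1 passed by DESeq2, while 0.0321% and 0.0193% of all genes were called higher and lower. With 1 sham liver per genotype, that fit takes the lone library to vary like the other groups.

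**Figure D2:**
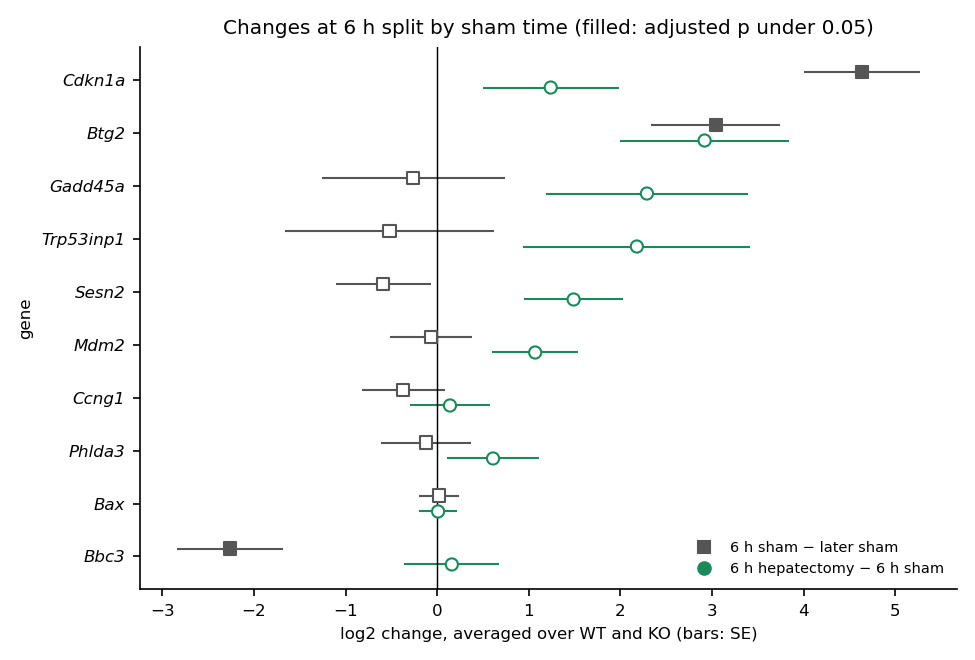
log2 changes (x axis, bars are SE) of the 10 genes (y axis) averaged over WT and KO, for 6 h sham against later sham livers (squares) and 6 h hepatectomy against 6 h sham livers (circles); filled symbols have an adjusted p under 0.05. Cdkn1a (4.64), Btg2 (3.04) and Bbc3 (-2.26) pass in the sham comparison and no gene passes in the hepatectomy one (Cdkn1a 1.24, Btg2 2.92); both use the same 2 sham livers of 6 h, with opposite sign, and the difference between them was not tested.

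Around the members at 6 h stood p53 targets that other stress pathways also induce. Unless stated, the changes given here are against the sham livers of all times, so they include any change that the 6 h sham livers share. The members and all gene lists were chosen with earlier results of these data known. Their medians and counts, here and below, are therefore descriptions and not independent tests. Of 7 genes on that list, 3 rose and none fell in each genotype, with a median log2 change of 1.49 in the WT and 1.83 in the KO, against 0.0249 and -0.00348 over all genes. Those called in both genotypes were Atf3 (3.78, adjusted p = 0.000878 in the WT; 4.23, adjusted p = 0.000298 in the KO) and Gdf15 (3.80, adjusted p = 0.00393; 5.44, adjusted p = 0.000165). Atf3 is a stress transcription factor and Gdf15 a secreted stress cytokine. The third was Plk3 in the WT (1.98, SE 0.60, adjusted p = 0.0371) and the transcription factor gene Klf4 in the KO (2.01, SE 0.47, adjusted p = 0.00951). Plk3 had also risen in the 6 h sham livers, by 2.20 against the later ones. Against the 6 h sham livers (1 per genotype), averaged over the genotypes, the median of the 7 genes was 1.62, against 0.0467 over all genes. Of 31 other p53 targets tested, 1 rose in the WT, the death receptor gene Fas (1.20, SE 0.36, adjusted p = 0.0378), and 3 fell, namely Xpc, Trp53i11 and Sesn1. In the KO none rose and Slc19a2 fell (-1.01, SE 0.31, adjusted p = 0.0448). The median log2 change of these 31 targets was -0.02 in the WT and -0.09 in the KO, and -0.12 against the 6 h sham livers. Of the regulators of p53, Rchy1 rose (0.75, adjusted p = 0.031) and Chek2 fell (-2.68, adjusted p = 0.0187) in the WT, and none passed in the KO. Among relatives of the members, the antiapoptotic gene Bcl2l1 (2.34 in the WT, adjusted p = 0.0048; 2.53 in the KO, adjusted p = 0.00183), Btg3 (3.05, adjusted p = 0.00483; 2.31, adjusted p = 0.0224) and Gadd45b (3.05, adjusted p = 0.0177; 3.94, adjusted p = 0.00304) rose in both genotypes. In the KO the proapoptotic gene Bcl2l11 rose (1.33, SE 0.40, adjusted p = 0.0393) and the proapoptotic gene Bid fell (-1.16, adjusted p = 0.0314). In the WT the antiapoptotic gene Mcl1 rose (0.65, adjusted p = 0.0355) and the sestrin gene Sesn1, which is also one of the other p53 targets above, fell (-1.03, adjusted p = 0.0459). Cdkn2c, an inhibitor of CDK4 and CDK6, fell in the WT (-2.14, SE 0.55, adjusted p = 0.0156). Of 8 neutrophil markers tested, 4 rose in the WT and none passed in the KO. Their sum was 26.3 to 69.6 CPM at 6 h against 3.02 to 14.1 CPM in sham livers in the WT, and 10.6 to 26.3 against 2.27 to 7.73 CPM in the KO. In the WT 2 of 4 B cell markers fell and 1 of 5 cholangiocyte markers rose, and none passed in the KO. Their part in these changes was not tested.

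At 24 h, 5 members were called higher in KO livers: Cdkn1a, Btg2, Gadd45a, Mdm2 and Sesn2. None fell, where 15.9% of all genes were called higher and 12% lower, and the median log2 change of the 10 members was 1.32 against -0.0112 over all genes. In the WT no member passed by edgeR (2 had an unadjusted p under 0.05, 1 passed by DESeq2), where 0.366% and 0.559% of genes were called higher and lower. Cdkn1a had the largest change of the members in the KO, 4.86 (SE 1.04, adjusted p = 0.00112), and stood at -0.07 in the WT (SE 1.05, adjusted p = 0.986). Without the 6 h sham livers these became 5.93 (SE 0.73, adjusted p = 1.23e-05) and 2.85 (SE 0.68, adjusted p = 0.0419), so that Cdkn1a then rose in both genotypes. In that fit 5 members were higher and 1 was lower in the KO (17.3% and 12.8% of genes) and 1 was higher and none lower in the WT (0.347% and 0.534%). The lower one was Bbc3, with -1.51 (SE 0.43, adjusted p = 0.00915). In a fit of KO 24 h and KO sham livers alone, Cdkn1a and Btg2 kept their calls, while Mdm2 (1.29, adjusted p = 0.0645), Sesn2 (1.24, adjusted p = 0.0785) and Gadd45a (2.32, adjusted p = 0.152) did not.

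The 4 KO livers at 24 h were not alike. Btg2 read 12.9, 135, 599 and 286 CPM in replicates 1 to 4, and its log2 change was 3.95 (SE 0.82, adjusted p = 0.000851). Sesn2, a sestrin that acts against oxidative stress and restrains mTORC1, read 6.47, 25.0, 25.0 and 24.5 CPM, against 4.93 to 11.1 CPM in KO sham livers, with a log2 change of 1.32 (SE 0.39, adjusted p = 0.0121). Mdm2, the feedback inhibitor of p53, read 9.31, 23.8, 43.5 and 34.9 CPM against 6.38 to 17.4 CPM in sham livers, a log2 change of 1.32 (SE 0.35, adjusted p = 0.00549). For all of these genes replicate 1 was the lowest, and for Btg2, Sesn2 and Mdm2 it lay within the sham range. Replicate 1 also had the highest Kupffer cell marker sum of the group, 344 CPM against 100 to 167 CPM in the others. Gadd45a read 0.527, 0.561, 45.7 and 7.44 CPM, so that replicates 1 and 2 lay below every sham liver of either genotype (1.34 to 4.41 CPM). Its change of 2.58 (SE 0.73, adjusted p = 0.00911) rested on replicate 3, without which it was 0.37 (adjusted p = 0.712).

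Trp53inp1, a stress protein gene that promotes p53-dependent arrest and cell death, read 5.24, 24.2, 179 and 102 CPM in the KO at 24 h and 3.27, 14.9 and 164 CPM in the WT. It spread as widely within each genotype as between them, and passed in neither (KO 1.86, adjusted p = 0.0902; WT 3.44, adjusted p = 0.0645). Its highest WT value was in replicate 3, the library with the low hepatocyte marker sum. That library also held the highest Ccng1 value of all, 52.7 CPM, against 14.6 and 17.8 CPM in the other WT livers at 24 h. Ccng1 encodes cyclin G1, which recruits phosphatase 2A to MDM2. In the KO at 24 h Ccng1 read 13 to 26.9 CPM and Bax, the pore-forming proapoptotic gene, 14.6 to 22.4 CPM, with log2 changes of 0.09 (SE 0.34, adjusted p = 0.867) and 0.06 (SE 0.21, adjusted p = 0.865). Phlda3, whose product restrains AKT, read 1.02 to 2.57 CPM (0.37, SE 0.39, adjusted p = 0.486), and Bbc3 read 1.34 to 2.72 CPM (-1.26, SE 0.50, adjusted p = 0.0576).

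**Figure D3:**
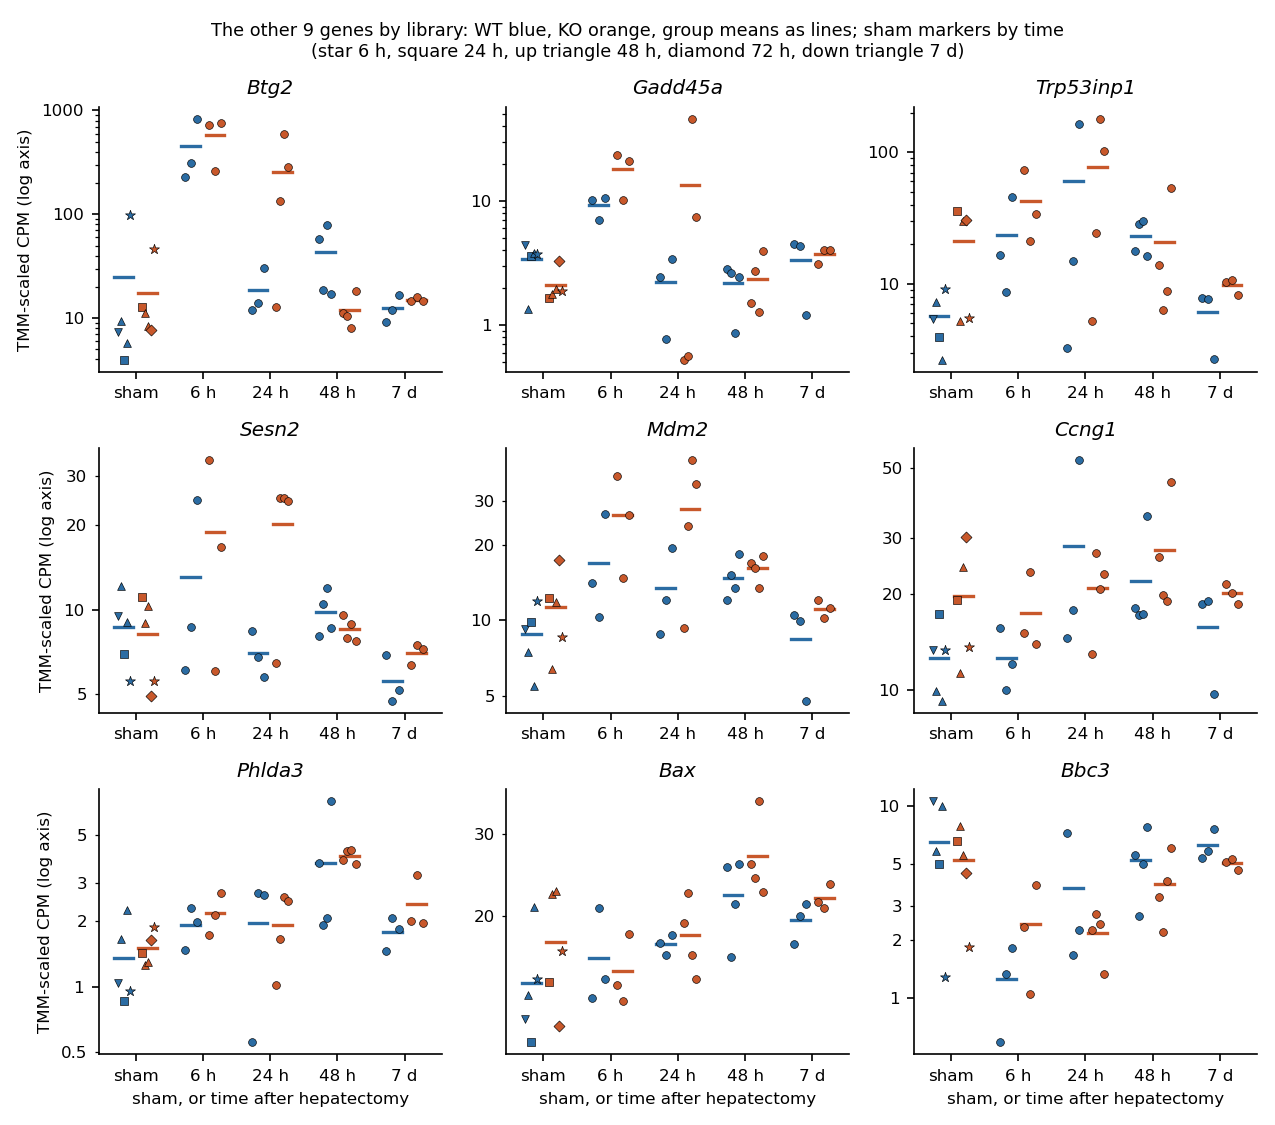
The other 9 genes in each library, in TMM-scaled CPM on log axes that differ between panels; WT is blue, KO is orange, lines are group means, and sham markers give the sham time. Btg2 follows the 6 h peak and the KO 24 h level of Cdkn1a, Sesn2 is near 25.0 CPM in 3 of 4 KO livers at 24 h, and Bax stays between 10.7 and 35.2 CPM throughout.

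Between the genotypes at 24 h, 4 members were higher in the KO and none lower, where 11.1% of all genes were called higher and 7.5% lower. The log2 difference was 4.36 for Cdkn1a (SE 1.25, adjusted p = 0.0172), 3.82 for Btg2 (SE 1.00, adjusted p = 0.0109), 2.62 for Gadd45a (SE 0.87, adjusted p = 0.0363) and 1.52 for Sesn2 (SE 0.46, adjusted p = 0.0222). Sesn2 read 8.42, 6.78 and 5.77 CPM in the WT, and Btg2 11.9, 14 and 30.2 CPM, so that 1 of 4 KO livers fell among the WT livers for each. Gadd45a read 2.43, 0.778 and 3.43 CPM in the WT, and 2 of 4 KO livers were below all of these. Without KO 24 h replicate 3 the Gadd45a difference was 0.30 (adjusted p = 0.832). Mdm2 differed by 1.08 (SE 0.40, adjusted p = 0.0585). In a fit of these 2 groups alone none of the 4 kept its call, with Cdkn1a at 4.32 (SE 1.00, adjusted p = 0.268). The Btg2 call was also lost without WT 24 h replicate 1 (adjusted p = 0.051), the Sesn2 call without WT 24 h replicates 2 or 3 or KO 24 h replicates 2, 3 or 4 (1.32 to 1.45), and the Gadd45a call without any WT 24 h liver or KO 24 h replicate 4 (2.16 to 2.94). Leaving out WT 24 h replicate 1 (3.80, adjusted p = 0.0688), WT 24 h replicate 3 (4.16, adjusted p = 0.0632) or KO 24 h replicate 4 (3.45, adjusted p = 0.0804) also ended the Cdkn1a call.

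The KO response at 24 h minus the WT response was 4.93 for Cdkn1a (SE 1.48, adjusted p = 0.0365) and 4.29 for Btg2 (SE 1.20, adjusted p = 0.0273), the 2 members called, where 5.52% of genes were called higher and 2.96% lower. Gadd45a (3.36, SE 1.09, adjusted p = 0.0515) and Sesn2 (1.59, SE 0.58, adjusted p = 0.0798) did not pass. The Cdkn1a value depended on the 6 h sham livers: it was 1.85 without the WT one (adjusted p = 0.302) and 3.08 without both (SE 0.92, adjusted p = 0.0388). Any of 9 single libraries, left out, ended its call. The Btg2 call was lost without WT sham replicate 5 (2.59, adjusted p = 0.113), WT 24 h replicates 1 or 3, KO sham replicate 3, or KO 24 h replicates 3 or 4 (3.71 to 4.48), and in the compared groups alone (4.2, adjusted p = 0.114). Set against the 24 h sham livers alone (1 per genotype), averaged over the genotypes, Cdkn1a stood 4.55 higher (SE 0.92) and did not pass (adjusted p = 0.0554), nor did any other member by edgeR. There 5 members had an unadjusted p under 0.05, 2 passed by DESeq2, and 0.0129% and 0.0321% of genes were called higher and lower.

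Among 31 other p53 targets tested, 4 rose and 2 fell in the KO at 24 h, where 15.9% and 12% of all genes did, so the list was not above the background, and its median log2 change was -0.13. Those that rose were Apaf1, the scaffold of the apoptosome (2.15, SE 0.44, adjusted p = 0.000825), the RNA-binding protein gene Zmat3 (1.09, SE 0.25, adjusted p = 0.0018), the death receptor gene Tnfrsf10b (2.17, SE 0.50, adjusted p = 0.00214) and Aen (0.72, SE 0.22, adjusted p = 0.0158). Fdxr (-1.15, SE 0.30, adjusted p = 0.00576) and Pltp (-0.90, SE 0.31, adjusted p = 0.0303) fell. In the WT at 24 h Pltp alone of these targets passed, and fell (-1.69, SE 0.36, adjusted p = 0.0202). Against the WT at 24 h, 6 were higher and 3 lower (11.1% and 7.5% of all genes), led by Aen (1.20, adjusted p = 0.00364), Apaf1 (2.12, adjusted p = 0.00846) and Zmat3 (1.04, adjusted p = 0.0144) above, and Ak1 (-4.59, adjusted p = 0.00381), Ptp4a3 (-1.74, adjusted p = 0.00875) and Fdxr (-0.99, adjusted p = 0.0393) below.

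Of the 7 targets shared with other stress pathways 4 rose in the KO at 24 h, namely Gdf15 (4.22, SE 0.73, adjusted p = 0.00016), Atf3 (2.92, SE 0.59, adjusted p = 0.000641), Klf4 (1.73, SE 0.44, adjusted p = 0.00429) and Ddit4 (1.83, SE 0.63, adjusted p = 0.0302). Gdf15 and Atf3 were also the 2 that were higher than in the WT (4.22, adjusted p = 0.00308; 2.79, adjusted p = 0.00887), and their KO response exceeded the WT response (4.63, adjusted p = 0.0101; 2.97, adjusted p = 0.0339). Of 19 relatives of the members 5 rose and none fell, led by Btg3 (4.27, adjusted p = 3.45e-05), Bcl2l1 (2.26, adjusted p = 0.000604) and Gadd45b (3.54, adjusted p = 0.000971), with Btg1 (2.22, adjusted p = 0.00194) and Ccng2 (1.37, adjusted p = 0.0128) as the other two. Bcl2l1 (2.68, adjusted p = 0.0171) and Btg3 (3.0, adjusted p = 0.0338) also passed the test of the difference of responses. Among 19 regulators of p53, 5 rose by less than 1 on the log2 scale, with the smallest adjusted p-values for the ubiquitin ligase gene Rchy1 (0.74, adjusted p = 0.00552), the acetyltransferase gene Kat5 (0.56, adjusted p = 0.00579) and Trp53bp2 (0.78, adjusted p = 0.014). The checkpoint kinase gene Chek2 fell (-1.50, SE 0.56, adjusted p = 0.0438). Trp53 itself, the gene of p53, read 16.9, 27.5, 6.17 and 7.77 CPM in these livers, with a log2 change of 0.11 (SE 0.28, adjusted p = 0.792), and the replicates with the highest Cdkn1a had the lowest Trp53. Of the other CDK inhibitors, Cdkn1c fell (-0.80, SE 0.30, adjusted p = 0.0444) and none rose.

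Markers of other cells moved in the same KO livers at 24 h. Of 8 Kupffer cell markers 7 fell and none rose, and their sum was 100 to 344 CPM against 290 to 450 CPM in KO sham and 243 to 501 CPM in WT 24 h livers. Of 7 sinusoidal endothelial markers 5 fell and 1 rose, with sums of 52.2 to 73.9 CPM against 80.4 to 151 CPM in KO sham livers. Of 7 T and NK cell markers 5 fell, with sums of 0.62 to 1.83 CPM against 2.74 to 6.87 CPM. Of 8 hepatocyte markers 2 rose, 1 of 5 cholangiocyte markers rose, 2 of 4 B cell markers fell, and none of 8 neutrophil markers passed. In the difference of responses at 24 h, 3 of 5 cholangiocyte markers were higher (median 2.67) and 1 of 7 endothelial markers was lower. Against the WT at 24 h, 5 of 7 endothelial, 3 of 8 Kupffer cell and 1 of 7 stellate markers were lower in the KO. In that comparison 3 of 8 hepatocyte and 2 of 5 cholangiocyte markers were higher. No neutrophil, T and NK cell, B cell or erythrocyte marker passed there. Of 10 proliferation genes 2 were lower than in the WT, Mcm6 (-1.96) and Mcm5 (-2.21). Against KO sham livers Mki67, which marks dividing cells, fell (-2.66, SE 0.97, adjusted p = 0.04), the 1 proliferation gene of 10 that passed. The part of these shifts in the members' changes was not tested.

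At 48 h, when proliferation genes were high, Phlda3 was the member that rose in each genotype. It read 3.72, 1.92, 2.07 and 7.11 CPM in the WT and 3.84, 4.19, 4.27 and 3.65 CPM in the KO, against 0.855 to 2.24 CPM over all sham livers. All KO livers were above every sham liver, while 2 WT livers were within the sham range. The log2 change was 1.40 in the WT (SE 0.39, adjusted p = 0.0227) and 1.39 in the KO (SE 0.38, adjusted p = 0.0381), the 1 member called in each, where 4.68% and 2.3% of genes were called higher and 3.62% and 0.7% lower. Leaving out WT 48 h replicate 4 gave 0.88 in the WT (adjusted p = 0.172), WT sham replicates 1, 3 or 5, each left out, also ended the WT call (1.25 to 1.27), and the KO call was lost without any of 13 single libraries (1.35 to 1.47). Bax read 25.4, 16.3, 21.2 and 25.8 CPM in the WT and 25.8, 24.1, 35.2 and 22.5 CPM in the KO, its highest group means, with log2 changes of 0.63 (SE 0.21, adjusted p = 0.0579) and 0.61 (SE 0.21, adjusted p = 0.123) that did not pass.

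Cdkn1a at 48 h stood 2.33 above sham in the WT (SE 0.98, adjusted p = 0.143) and at -0.06 in the KO (SE 0.92, adjusted p = 0.992). Without the 6 h sham livers the WT value was 5.18 (SE 0.71, adjusted p = 0.000121) and the KO value 1.29 (SE 0.61, adjusted p = 0.375). In that fit Btg2 also rose in the WT, by 2.67 (SE 0.66, adjusted p = 0.0128), so that 2 members were called higher and none lower (4.74% and 3.93% of genes), and Phlda3 passed in neither genotype. Averaged over the genotypes and set against the 48 h sham livers (2 per genotype), Cdkn1a rose by 2.92 (SE 0.63, adjusted p = 0.0154), the 1 member called, where 1.94% of genes were called higher and 1.79% lower. That call was lost without WT sham replicate 2, WT sham replicate 4 or KO sham replicate 2 (adjusted p = 0.0684 to 0.109). The separation of the genotypes, with every WT liver above every KO liver, gave a KO minus WT difference of -2.96 (SE 1.05) that did not pass (adjusted p = 0.237). No member passed there by edgeR or DESeq2, 2 had an unadjusted p under 0.05, and 0.161% and 0.18% of genes were called higher and lower. Btg2, at 58.1, 18.5, 78.8 and 17.1 CPM in the WT and 11.3, 10.4, 8.09 and 18.4 CPM in the KO, gave -1.99 (SE 0.83, adjusted p = 0.338). The KO minus WT response of Cdkn1a was -2.39 (SE 1.34, adjusted p = 0.699) and became -5.21 (adjusted p = 0.0296) without WT sham replicate 5, the 6 h sham liver.

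Of 10 proliferation genes 10 rose in the WT and 9 in the KO at 48 h, with median log2 changes of 2.76 and 3.13. Markers of other cells also moved in the WT at 48 h: 3 of 8 hepatocyte, 2 of 7 sinusoidal endothelial, 1 of 7 T and NK cell, 1 of 4 B cell and 1 of 4 erythrocyte markers were lower, and 1 of 8 Kupffer cell markers was higher. The endothelial sums were 48.3 to 106 CPM, against 102 to 246 CPM in WT sham livers. In the KO at 48 h none of these markers passed, and the part of the WT shifts in the members' values was not tested. The WT livers differed widely, with proliferation sums of 279, 127, 22.5 and 423 CPM in replicates 1 to 4. Cdkn1a read 128, 29.2, 156 and 38.3 CPM in the same livers. The liver with the lowest sum had the highest Cdkn1a of the 4, but the other livers did not follow an inverse order. Among other p53 targets, Tnfrsf10b (2.85, adjusted p = 0.00099) and Aen (0.85, adjusted p = 0.0134) rose in the WT, and Pltp (-1.60, adjusted p = 0.00242), Dcxr (-1.24, adjusted p = 0.00798) and Xpc (-0.53, adjusted p = 0.0337) fell. In the KO the p53 phosphatase gene Ppm1d (0.99, adjusted p = 0.00641) and the spindle gene Psrc1 (3.21, adjusted p = 0.0102) rose and Pltp fell (-1.68, adjusted p = 0.0025). Among relatives of the members, Btg3 (2.29, adjusted p = 0.0124) and Ccng2 (1.33, adjusted p = 0.0377) rose in the WT and none passed in the KO. The checkpoint kinase gene Chek1 rose in both genotypes (WT 2.92, adjusted p = 0.0256; KO 3.49, adjusted p = 0.0132), and Chek2 rose in the KO (2.03, adjusted p = 0.0179). Of the CDK inhibitors, Cdkn2c rose in both (WT 1.51, adjusted p = 0.0295; KO 1.88, adjusted p = 0.0102), and Cdkn2d rose in the KO (1.48, adjusted p = 0.0321). Against the 48 h sham livers, Pltp (-1.89, adjusted p = 0.000607) and Dcxr (-1.24, adjusted p = 0.025) fell, and the regulators Chek1 (3.66, adjusted p = 0.0396) and Atr (1.28, adjusted p = 0.0354) rose.

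At 7 d no member passed in either genotype by edgeR or DESeq2 (1 in the WT and 0 in the KO at an unadjusted p under 0.05). None of the 15564 genes tested was called by edgeR (0% in each direction). Cdkn1a stood at -2.62 in the WT (SE 1.14, adjusted p = 0.738), and at 0.67 (SE 0.70, adjusted p = 0.922) without the 6 h sham livers. Nor did a member differ between KO and WT sham livers (0 by edgeR and DESeq2, 1 at an unadjusted p under 0.05), where 0.173% of genes were called higher and 0.103% lower. That 1 member was Trp53inp1, at 35.6, 5.24, 29.9, 30.3 and 5.45 CPM in KO sham replicates 1 to 5 and 2.65 to 9.06 CPM in WT sham livers, a log2 difference of 1.92 (SE 0.81, adjusted p = 0.301). No member differed between KO and WT at 7 d (0 by edgeR, by DESeq2 and at an unadjusted p under 0.05; 0.0257% and 0.0193% of genes).

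**Figure D4:**
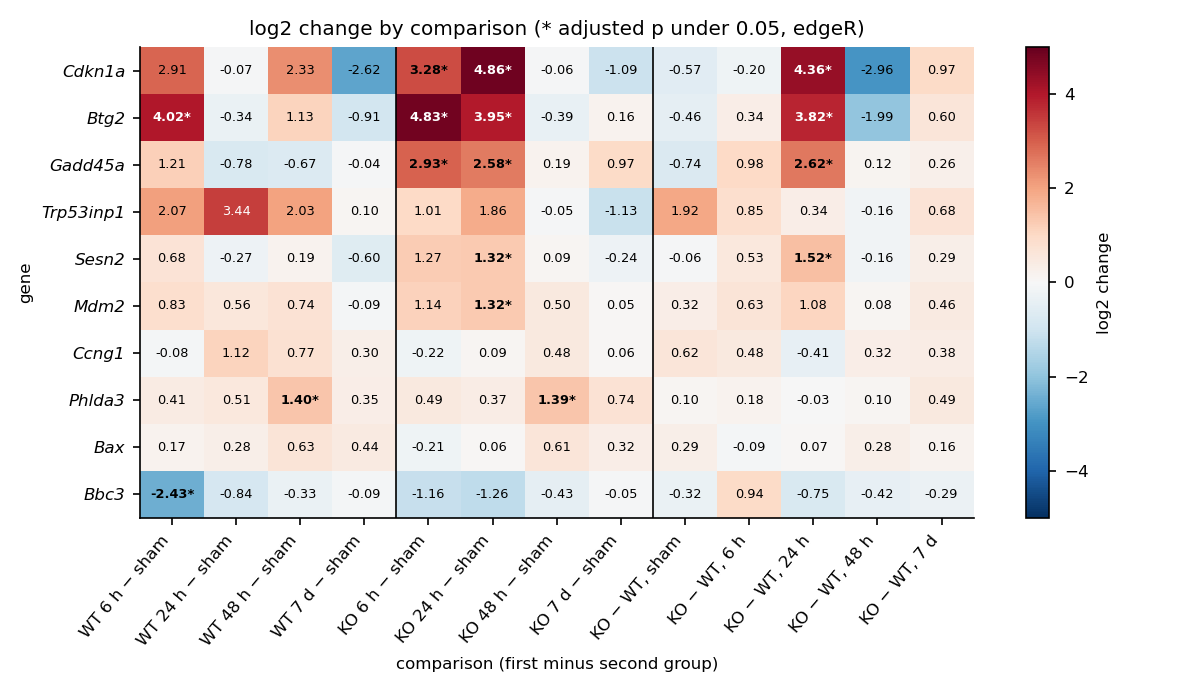
log2 change of each gene (rows) in each comparison with sham or between genotypes (columns), with values printed and a star where the adjusted p is under 0.05. The columns with most stars are KO 24 h against sham (5), KO against WT at 24 h (4) and KO 6 h against sham (3).

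The members did not form 1 group across the 37 libraries. Cdkn1a followed Btg2 most closely (Spearman's rho 0.87) and was opposite to Bbc3 (-0.70). Mdm2 and Trp53inp1 formed another close pair (0.87), and Ccng1 was nearer to these (0.59 with Mdm2, 0.56 with Trp53inp1) than to Cdkn1a (0.09). Bax was unrelated to Cdkn1a (0.01) and nearest to Phlda3 (0.53). Cdkn1a and Trp53 gave 0.36. These values describe libraries that share operation, time and sex, and so are not independent points.

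**Figure D5:**
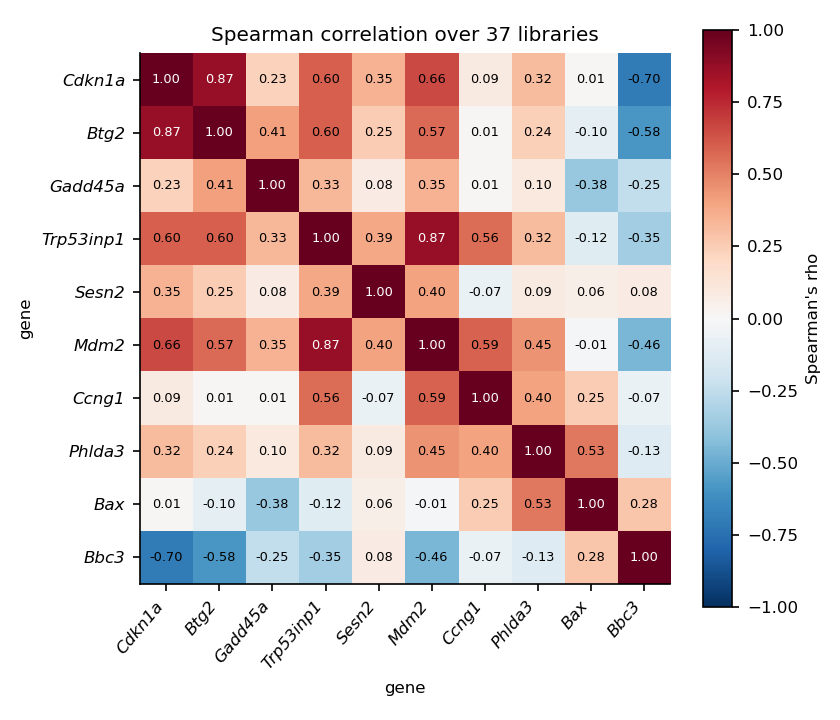
Spearman correlation of each pair of the 10 genes over 37 libraries, with rho printed in each cell (red positive, blue negative). Cdkn1a with Btg2 and Mdm2 with Trp53inp1 (0.87 each) are the closest pairs, and Cdkn1a with Bbc3 (-0.70) is the most opposed.

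Of 11669 genes with a mean of at least 1 CPM, those whose levels over the 37 libraries were most like Cdkn1a were Golt1b (rho 0.931), Myl12a (0.928), Desi2 (0.913), Map3k6 (0.909), Tnfrsf12a (0.906), Btg3 (0.904), Prelid3b (0.903) and Ube2j1 (0.897). None of the other 9 members was among these 8, which include 1 relative of Btg2. The most like gene was Etf1 for Mdm2 (0.916), Il1r1 for Btg2 (0.894), Zfp281 for Trp53inp1 (0.899), Mzt1 for Ccng1 (0.862) and Haghl for Bbc3 (0.849). For Sesn2 it was Btg1 (0.782), for Bax Pgp (0.764), for Phlda3 Chaf1b (0.749) and for Gadd45a Bach2 (0.731).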

How the data were processed

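The deposited table holds 1 whole-number value per gene and library. They were read here as RSEM expected counts, presumed rounded by the authors, since the submitters' processing notes name STAR 2.5.3a, RSEM 1.3.0 and GRCm38 without giving each tool's role; the annotation, strand setting and filters are not given in the sources used here. Libraries were made from frozen liver with a stranded mRNA kit, per the labels' protocols. Of the members, Cdkn1a and Gadd45a overlap a gene on the other strand, and Bax and Sesn2 one on their own, each with a median of at most 0.443 CPM.

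Counts were fitted with edgeR 4.0.16 (R 4.3.3): filterByExpr (15564 genes), TMM scaling, robust quasi-likelihood tests, 10 groups plus sex, all 37 libraries, common biological coefficient of variation 0.39. A second fit split sham livers by time. Benjamini-Hochberg adjustment ran over all tested genes, with calls at 0.05; SE is the log2 change over the root of F. CPM is TMM-scaled. The fits were also run on simulated counts with known log2 changes, for KO 24 h against sham and for 6 h against later sham livers. The simulation took its spread from the main fit, and its outcome is not given here. DESeq2 1.42.0 and the other alternatives are in the closing section. Positions and exon lengths are from GENCODE M21, matched for 55227 IDs, and promoters from RefSeq.

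Named genes were all 10 members, up to 3 called genes per direction and list (any list gene where at most 5 were called), and the genes most like each member. Members and lists were chosen with earlier results of these data known. One gene of the list of targets shared with other stress pathways is not reported here, and that list's counts leave it out. Chi-square over degrees of freedom was 32.07 for the most similar replicates, so none were treated as duplicates. No paired analysis was possible because the labels give no replicate numbers.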

Additional observations from a re-analysis of the deposited data

Results flagged for a closer look

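Among the 50 sets of 1 member in 1 group of 4 or 5 libraries, 8 held a library far from the others, where chance gives about 1 in 20. The 6 h sham livers stood apart for Btg2 in the WT (99.0 CPM) and in the KO (46.7 CPM) and for Cdkn1a in the WT (132 CPM). Gadd45a was low in WT sham replicate 2 (1.34 CPM) and WT 48 h replicate 3 (0.856 CPM), and high in KO sham replicate 4 (3.30 CPM), the 72 h sham liver. Ccng1 was high in WT 48 h replicate 4 (35.3 CPM), the liver that was also highest of its group for Phlda3 and for the proliferation sum. Sesn2 was low in KO 24 h replicate 1 (6.47 CPM).

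The response to hepatectomy at 24 h differed between KO and WT for Cdkn1a, by 4.93 on the log2 scale, and for Btg2, by 4.29, by edgeR's test of the difference itself. Each call was lost when certain single libraries were left out, and in the fit of the compared groups alone (4.74 and 4.2, adjusted p = 0.169 and 0.114).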

How the results depend on the processing

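No pair of settings was changed together, and every alternative was planned. With RLE scaling all 58 results, tests of single genes and counts of members called together, were judged the same. The gene tests kept their direction and side of the threshold, and the counts stayed equal or close. DESeq2 called 1 member at 24 h and 5 at 6 h in WT and KO respectively, 1 against 6 h sham and 2 against 24 h sham, and it called Cdkn1a in the WT at 6 h (2.90) and against 24 h sham (4.55). Without a count filter the SE of Cdkn1a in the WT at 6 h was 0.29 in place of 0.99, and more members were called: 5, 2, 4 and 1 in the WT at 6 h, 24 h, 48 h and 7 d, 7 and 1 in the KO at 6 h and 7 d, 1 and 2 between genotypes in sham and at 48 h, 5 and 3 for the difference of responses at 24 h and 48 h, and 5, 3 and 4 against sham of 6 h, 24 h and 48 h. Cdkn1a then passed in the WT at 6 h (2.90), 48 h (2.33) and 7 d (-2.56), between genotypes at 48 h (-2.92), for the difference of responses at 48 h (-2.39) and against sham of 6 h (1.23) and 24 h (4.51); the cause was not tested. Without the sex term 1 member was called for the difference of responses at 24 h, where Cdkn1a (5.12) did not pass, and 2 against 48 h sham. In males alone 0 members were called in the WT and 1, Btg2, in the KO at 6 h, where Cdkn1a (2.95) did not pass. The same fit, with fewer samples, called 2 between genotypes at 24 h and 1 between 6 h and later sham livers.

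In fits of the compared groups alone, which have fewer samples, 0 members were called in the WT at 6 h, 2 in the KO at 24 h (Cdkn1a and Btg2), 0 between genotypes at 24 h and 0 for the difference of responses at 24 h. Cdkn1a was 2.98 in the KO at 6 h, 4.32 between genotypes at 24 h and 4.74 for the difference of responses, none passing; it changed sign in the WT at 24 h (0.75) and for the difference of responses at 6 h (-0.00404). Without the 6 h sham livers 1 and 2 members were called in the WT at 24 h and 48 h and 0 in the KO at 48 h. Cdkn1a then passed in the WT at 6 h (6.46) and 48 h (5.18), and changed sign in the WT at 24 h (2.85) and 7 d (0.67), in the KO at 48 h (1.29), between genotypes in sham (1.33) and for the difference of responses at 6 h (-1.53) and 7 d (-0.84).

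Each of the 37 libraries was left out in turn; the contrasts with 6 h or 24 h sham could not be fitted without either of their lone sham livers. Cdkn1a ranged in the WT from 2.60 to 6.19 at 6 h, -1.10 to 2.74 at 24 h, 1.43 to 5.09 at 48 h and -2.93 to 0.46 at 7 d, and in the KO from 2.95 to 4.51 at 6 h and -0.32 to 1.07 at 48 h. Between genotypes it ranged from -1.76 to 2.55 in sham and 3.45 to 5.46 at 24 h. The difference of responses ranged from -2.75 to 1.56 at 6 h, 1.85 to 6.14 at 24 h, -5.21 to -1.07 at 48 h and -1.92 to 2.58 at 7 d, and the contrasts with sham of 24 h and 48 h from 4.24 to 4.8 and 2.37 to 3.22. Members called ranged in the WT from 0 to 3 at 6 h, 0 to 2 at 24 h and 0 to 2 at 48 h, in the KO from 1 to 5 at 6 h and 0 to 1 at 48 h, between genotypes at 24 h from 1 to 5, for the difference of responses from 0 to 4 at 24 h and 0 to 1 at 48 h, and against sham of 6 h, 24 h and 48 h from 0 to 1, 0 to 2 and 0 to 2. In the KO at 24 h Cdkn1a stayed between 4.06 and 5.90 and passed in all 37 fits, as did Mdm2, Sesn2 and Btg2. Scaling CPM by total counts moved 19 of 100 group means by more than 1 SD. The lowest member count was 15 reads (Gadd45a, KO 24 h replicate 1), and the sham groups of 6 h, 24 h and 48 h rest on 1 or 2 livers per genotype.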
